A study of Mus musculus with 6 samples.

Results

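The transcripts described here are 7 non-coding host genes of small nucleolar RNAs (snoRNAs), Gas5, Snhg1, Snhg3, Snhg5, Snhg6, Snhg8 and Snhg12, chosen by name. Of these 7, 5 had a row of counts among the 37991 genes counted, and all 5 were among the 16683 genes tested. Snhg6 and Snhg8 had no gene of that name in the annotation used here, so that their levels were not analysed here, and Snhg8 is described by its start sequence and its locus alone. RNA was taken from pre-B cells of C57BL/6 mice, sorted from bone marrow by B220, IgM and IgD. The labels give 1 gate for all samples (B220 high, IgM low, IgD low), whereas the methods of the study give that gate for wild-type and premalignant cells and a B220-positive, IgM-negative, IgD-negative gate for malignant cells. The wild-type group came from mice of 4 to 6 weeks without the transgene. The premalignant group came from Eμ-Myc/+ mice of the same age, and the malignant group from Eμ-Myc/+ mice of 10 to 20 weeks that had developed lymphoma. In the transgene, the immunoglobulin heavy chain enhancer (Eμ) directs Myc to cells of the B lineage. Only females were used for the wild-type and premalignant groups, and the malignant animals of the study were of both sexes. Age, and possibly sex and the gate, therefore differ between the malignant group and the others and cannot be told apart from stage. Each stage had 2 libraries of polyadenylated RNA, 6 in all, from different animals, and p-values measure the spread between these libraries.

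snoRNAs are short nucleolar RNAs that guide chemical modification of ribosomal RNA. Box C/D snoRNAs guide methylation and box H/ACA snoRNAs guide pseudouridylation, and a few act in cutting the ribosomal RNA precursor. Most vertebrate snoRNAs are cut from introns of host transcripts. The exons of the non-coding hosts are spliced and polyadenylated, and several are degraded by nonsense-mediated decay when ribosomes enter them. Many hosts begin with a terminal oligopyrimidine (TOP) tract, as the mRNAs of ribosomal proteins do. Gas5 was named for its accumulation in growth-arrested cells.

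The starts of the hosts are shown because a TOP tract, known for many hosts, is also known for ribosomal protein mRNAs. Each line gives 60 bases around the RefSeq start (GRCm38.p6), on the strand of the gene. Capitals mark the longest stretch of C and T near the start, counted from its first C, or the first of equal ones.
Gas5, chr1:161035136-161035195, plus strand: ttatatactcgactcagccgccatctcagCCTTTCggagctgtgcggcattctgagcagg
Snhg1, chr19:8723457-8723516, plus strand: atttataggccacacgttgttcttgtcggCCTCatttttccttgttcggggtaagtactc
Snhg3, chr4:132353657-132353716, minus strand: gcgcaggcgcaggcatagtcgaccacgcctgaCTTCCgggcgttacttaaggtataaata
Snhg5, chr9:88522868-88522927, minus strand: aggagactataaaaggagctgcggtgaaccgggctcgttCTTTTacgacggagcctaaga
Snhg8, chr3:123508307-123508366, minus strand: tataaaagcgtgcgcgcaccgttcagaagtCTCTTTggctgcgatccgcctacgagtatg
Snhg12, chr4:132308648-132308707, plus strand: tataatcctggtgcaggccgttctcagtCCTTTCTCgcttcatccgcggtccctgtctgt

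The capitals count from the first C of a stretch of C and T whose first C lay within 10 bases of the start. Counted in this way, 5 of the 6 hosts with a sequence had at least 5 bases, and so did 29.0% of 32841 RefSeq promoters. The stretch of Snhg5 began 9 bases downstream of the RefSeq start. This way of counting was set after the sequences were seen. Under the definition tried first, in which the stretch had to begin with C, 2 of the 6 hosts, Gas5 and Snhg3, had such a tract, against 22.9% of promoters. The number of hosts with a tract therefore rests on the definition. The start of Gas5 shown is that of the tract, and a second RefSeq start upstream of it had a stretch of 3 bases. The letters CACGTG, the E-box that Myc binds, occurred in none of the 6 hosts' 300-base windows, with a motif that reads the same on both strands, and in 7.15% of all promoters. The letters TATAAA, on either strand, occurred in Snhg1, Snhg3, Snhg5 and Snhg8 and in 13.6% of all promoters. These matches describe the letters only.

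The 5 counted hosts held 25 annotated snoRNA genes. All coordinates of genes are on NCBIM37 (mm9). Gas5 (ENSMUSG00000053332, chr1:162964553-162968670, plus strand) held 9 box C/D snoRNAs, and Snhg1 (ENSMUSG00000090867, chr19:8797986-8800932, plus strand) held 8. Snhg12 (ENSMUSG00000086290, chr4:131864593-131866939, plus strand) held 4, namely Snora16a, Snora44, Snora61 and Snord99. Snhg5 (ENSMUSG00000032424, chr9:88415894-88417721, minus strand) held a pair of SNORD50 copies. Snhg3 (ENSMUSG00000085241, chr4:131903929-131909601, minus strand) held Snora73a and Snora73b, whose human counterparts are known as U17 and act in cutting the ribosomal RNA precursor.

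**Figure D1:**
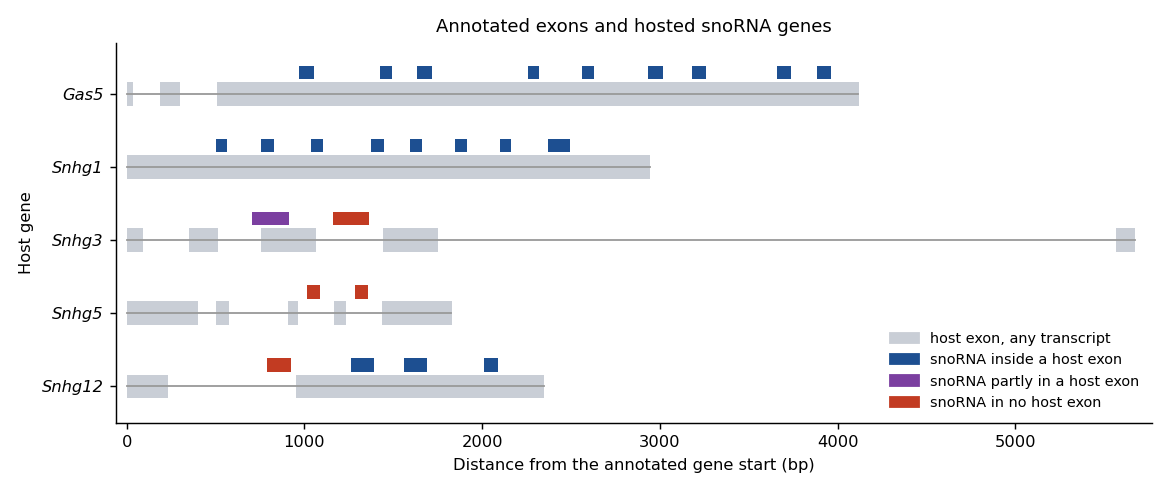
Annotated exons (grey, over all transcripts of the gene) and hosted snoRNA genes (coloured blocks) of the 5 counted hosts, drawn to scale against distance from the annotated start in bp. In Gas5 and Snhg1 all snoRNAs lie inside stretches annotated as exon in some transcript, whereas both snoRNAs of Snhg5 lie in introns.

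The annotation sets what the counts of these genes can hold. The kit did not mark strand, and counting per gene commonly gives a read that lies on overlapping genes to neither. Snhg1 is annotated as exon over its whole 2947 bp, and 2332 of these bases lie in no other gene. Snhg5 is the clearest of the hosts, since all 993 of its exon bases lie in no other gene. Snhg3 is the least clear, since 135 of its 986 exon bases lie in no other gene. The rest lie on Rcc1, on the antisense lincRNA Gm17300 or on Snora73a, so that the level of Snhg3 is uncertain.

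The libraries held between 30031100 and 53453055 counts, and the replicate 1 library was the deeper one at each stage. Myc, the gene carried by the transgene, stood at 33.8 and 41.4 CPM (counts for every 1000000 of the TMM-scaled library) in wild type, 1164 and 1155 in premalignant and 1732 and 1578 in malignant cells. The 5 T-cell markers summed to 37.0 to 65.4 CPM in wild type, 13.9 to 31.0 in premalignant and 1.21 to 9.89 CPM in malignant cells. The 13 pro-B and pre-B markers summed to 7624 to 8322 CPM in wild type, 3464 to 3511 in premalignant and 2827 to 3197 CPM in malignant cells, and 13, 12 and 9 of them were at 1 CPM or more in both libraries of the stage. Igll1, a part of the surrogate light chain of early B cells, stood at 196.9 and 194.8 CPM in wild type, 18.8 and 9.58 in premalignant and 0.167 and 7.56 CPM in malignant cells. The 7 myeloid markers summed to 775.5 to 1703 CPM in wild type, 231.8 to 248.5 in premalignant and 55.3 to 112.8 CPM in malignant cells. The 7 erythroid markers summed to 343.6 to 1349, 83.5 to 185.8 and 68.4 to 79.6 CPM in the same order. The early B-cell, T-cell, myeloid and erythroid sums were all highest in wild type, where the hosts were lowest. The mature B sum, over the 3 markers with a row of counts, did not follow this order. It was 96.5 to 181.4 CPM in wild type, 181.2 to 233.0 in premalignant and 30.9 to 79.0 CPM in malignant cells. The part of all these cell types in the results on the hosts was not tested.

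All 5 hosts were higher in premalignant than in wild-type cells, by between 2.88-fold and 3.76-fold. Gas5, at 157.0 and 168.0 CPM in wild type, reached 515.6 and 473.8 in the premalignant and 732.7 and 425.3 in the malignant libraries. Snhg1 stood at 56.8 and 60.4 CPM in wild type, 193.4 and 198.3 in premalignant and 257.8 and 173.1 in malignant cells. Both premalignant libraries lay above both wild-type libraries for each of these genes, and the malignant libraries lay on either side of the premalignant ones. The share of all genes with these orders was not counted.

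Snhg12 stood at 17.6 and 20.6 CPM in wild type, 60.4 and 51.6 in premalignant and 76.8 and 57.9 in malignant cells. Snhg5 stood at 35.5 and 40.5 CPM in wild type, 104.2 and 114.5 in premalignant and 96.4 and 83.5 in malignant cells. Snhg3 was the lowest, at 3.73 and 2.49 CPM in wild type, 13.3 and 10.2 in premalignant and 16.9 and 9.11 in malignant cells. Snhg5 was the only host of the 5 for which both malignant libraries lay below both premalignant ones. With 2 libraries a stage such an order can arise without a change, and its share over all genes was not counted. The difference had an adjusted p of 0.358 in edgeR's test.

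**Figure D2:**
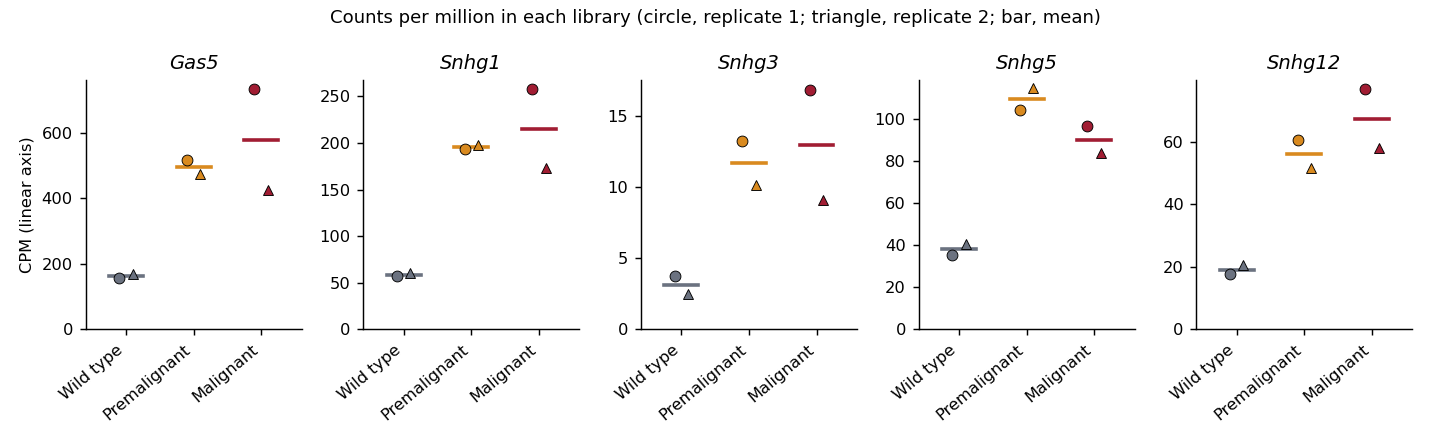
CPM of the 5 hosts in each of the 6 libraries, on a linear axis from 0 with its own scale for each gene. Circles are replicate 1, triangles replicate 2 and bars the mean of a stage. For every host both wild-type libraries sit below the other 4 libraries, and the share of all genes with this order was not counted.

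A gene was called when edgeR's quasi-likelihood test gave an adjusted p (Benjamini-Hochberg over all 16683 genes) of at most 0.1 and the log2 fold change was at least 0.5 in size. In premalignant vs. wild type all 5 hosts were called higher, where 19% of all genes tested were called higher, 20.3% lower and 39.3% in either direction. The log2 fold change was 1.61 ± 0.26 (SE) for Gas5 (adjusted p = 0.00802) and 1.74 ± 0.21 for Snhg1 (adjusted p = 0.00346). Snhg5 rose by 1.52 ± 0.15 (adjusted p = 0.00248) and Snhg12 by 1.56 ± 0.20 (adjusted p = 0.00415). Snhg3 rose by 1.91 ± 0.40 (adjusted p = 0.0170), and its call was lost without wild type replicate 2 (1.65) or without premalignant replicate 1 (1.71). Each of these fits left 1 library in a stage and called fewer of all genes than the fit of all 6 libraries. In bulk RNA, fewer cells of a type and less RNA per cell cannot be told apart.

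In malignant vs. wild type, all 5 hosts were again called higher, where 24.9% of genes tested were called higher, 24.3% lower and 49.2% in either direction. The log2 fold changes were 1.83 ± 0.26 (SE) for Gas5, 1.88 ± 0.21 for Snhg1, 1.24 ± 0.15 for Snhg5, 1.82 ± 0.20 for Snhg12 and 2.06 ± 0.40 for Snhg3. Their adjusted p-values in edgeR's test lay between 0.00146 and 0.00914. This comparison shares its wild-type libraries with the one before.

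No host was called in malignant vs. premalignant cells, where 3.73% of all genes tested were called higher, 2.45% lower and 6.18% in either direction. The lowest unadjusted p of the 5 was 0.104, and DESeq2 also called 0 of them. The log2 fold change was 0.23 for Gas5 (95% interval from -0.39 to 0.85), 0.14 for Snhg1 (from -0.35 to 0.62) and 0.27 for Snhg12 (from -0.20 to 0.74). It was 0.15 for Snhg3, with an interval from -0.79 to 1.08, and -0.28 for Snhg5, with an interval from -0.64 to 0.08. The intervals are wide enough for a change of at least 0.5 in size for each host.

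The malignant libraries differed from each other more than the libraries of the other stages. The higher malignant library was 1.72 times the lower one for Gas5, 1.49 times for Snhg1, 1.85 times for Snhg3, 1.33 times for Snhg12 and 1.15 times for Snhg5. In all 5 hosts replicate 1 was the higher one. Without malignant replicate 2, Gas5 was called higher than in premalignant cells, with a log2 fold change of 0.53. That fit left 1 malignant library and called more of all genes than the fit of all 6 libraries. Without malignant replicate 1 the log2 fold change of Gas5 was -0.22.

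**Figure D3:**
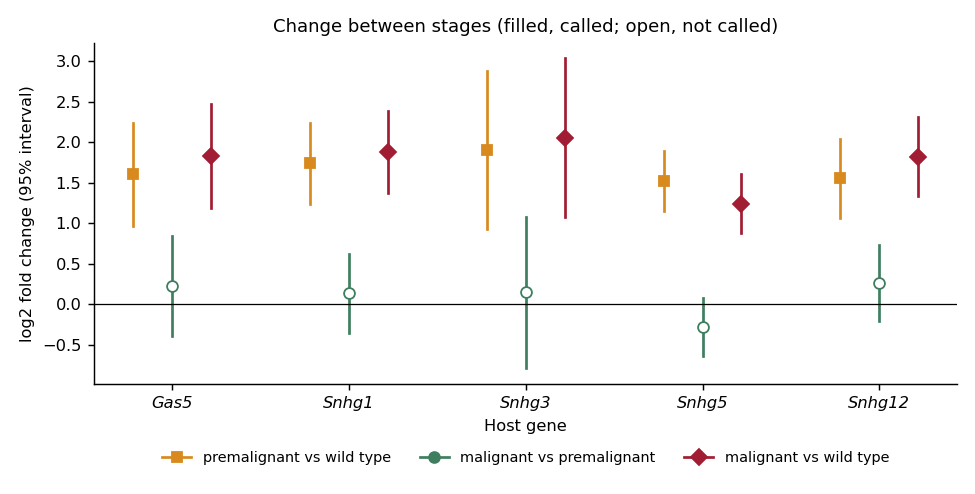
Log2 fold change of the 5 hosts in the 3 comparisons, with 95% intervals from the edgeR fit. Filled symbols were called and open symbols were not. The changes against wild type all lie above 1, and all 5 intervals of malignant vs. premalignant cross 0.

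Set against the whole change from wild type to malignant cells on the log2 scale, the premalignant level of Gas5 had covered 87.6%, that of Snhg1 92.7%, that of Snhg3 92.8% and that of Snhg12 85.4%. The value for Snhg5 was 123%, since its premalignant level lay above the malignant one. These shares carry the spread of the malignant libraries and were not tested.

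The hosts kept much the same proportions to each other in most libraries. Gas5 made up between 55.8% and 62.1% of the counts of the 5 hosts. Snhg5 counts were 22.6% and 24.1% of Gas5 counts in wild type, 20.2% and 24.2% in premalignant and 13.2% and 19.6% in malignant cells. Both malignant values lay below the other 4, a difference that was noticed in the data and not tested. Snhg1 counts, at 35.2% to 41.9% of Gas5 counts, overlapped between the stages.

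Levels between genes were compared per length, as RPKM, which is CPM divided by the length of annotated exon in kilobases. On this scale the order was Gas5, Snhg5, Snhg1, Snhg12 and Snhg3 at every stage, with wild-type means of 43.2 ± 2.07, 38.3 ± 3.54, 19.9 ± 0.86, 11.7 ± 1.31 and 3.16 ± 0.89 RPKM (SD, n = 2). With only the exon bases that lie in no other gene, Snhg3 moved from the lowest place to an RPKM of 23.1 ± 6.50 in wild type, beside Snhg1 at 25.1 ± 1.09. In malignant cells it moved from 13.2 to 96.2 ± 40.6, beside Snhg1 at 92.4 ± 25.7 and Snhg5 at 90.6 ± 9.16. These 3 did not differ beyond their spread. The place of Snhg3 thus depends on the length used, whereas Gas5 was the highest on both lengths.

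Counts on the hosted snoRNA genes themselves say little of mature snoRNAs, which have no poly(A) tail. Of the 25 snoRNA genes, 20 lay wholly inside host exons, and all 20 were listed at 0 in all 6 libraries. Such a 0 is no level, since reads there would lie on both genes. The others were 4 snoRNA genes outside host exons, with 0 to 513 counts over the 6 libraries, and Snora73a, partly inside one, with 43.

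Snora16a, a box H/ACA snoRNA in an intron of Snhg12, was the only hosted snoRNA with over 50 counts in the 6 libraries together. It is shown because it could be set against its host, with its ACA box in capitals (NCBIM37, plus strand).
Snora16a, chr4:131865380-131865515: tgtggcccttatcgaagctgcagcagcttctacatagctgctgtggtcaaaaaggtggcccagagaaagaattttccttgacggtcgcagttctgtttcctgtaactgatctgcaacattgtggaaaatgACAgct

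Snora16a had 35 and 20 counts in wild type, 144 and 64 in premalignant and 172 and 78 in malignant cells. It rose by 1.98 ± 0.39 (SE) on the log2 scale in premalignant vs. wild type (adjusted p = 0.0134, edgeR) and by 2.43 ± 0.39 in malignant vs. wild type (adjusted p = 0.00466, edgeR). The change in malignant vs. premalignant cells was 0.45 and was not called (adjusted p = 0.561, edgeR). Its host Snhg12 had the same calls in all 3 comparisons. Reads from the unspliced host and from the snoRNA cannot be told apart here.

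The SNORD50 copies in Snhg5 are shown because they are almost the same sequence, so that short reads may not be assigned to one of them. Counted from the 5′ end of the snoRNA, the only difference was C50A, an identity of 98.6% over 72 bases. The C and D boxes are in capitals (NCBIM37, minus strand).
SNORD50, chr9:88416367-88416438: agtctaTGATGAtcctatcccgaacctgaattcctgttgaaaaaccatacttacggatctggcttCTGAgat
SNORD50, chr9:88416635-88416706: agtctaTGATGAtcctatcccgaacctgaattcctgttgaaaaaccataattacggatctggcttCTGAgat

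These copies had 24 and 49 counts over the 6 libraries and are uncertain. The copies of Snora73 in Snhg3 were 96.6% identical over 205 bases.

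Snhg8 could be placed on NCBIM37 by its start alone, at chr3:123211254 on the minus strand. A stretch of its RefSeq length from there, chr3:123210470-123211254, was assumed. In this stretch the annotation holds 1 snoRNA gene, AC124005.1. That gene had 104 and 182 counts in wild type, 238 and 161 in premalignant and 230 and 207 in malignant cells. It was called in none of the 3 comparisons (log2 fold change 0.43 in premalignant vs. wild type, adjusted p = 0.567, edgeR). The table of starts held no entry for Snhg6.

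Some hosts share their start region with a protein-coding gene, and these neighbours did not all follow them. Slc3a2, the heavy chain of an amino acid transporter, starts 127 bp from Snhg1 on the opposite strand. It rose by 0.85 ± 0.14 in premalignant vs. wild type (adjusted p = 0.00762, edgeR) and by 0.68 ± 0.14 in malignant vs. premalignant (adjusted p = 0.0622, edgeR), the comparison in which Snhg1 was not called. Whether both genes differed in their change was not tested.

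Rcc1, the nucleotide exchange factor of Ran, overlaps Snhg3 on the same strand and starts 81 bp from it. It rose by 1.34 ± 0.17 in premalignant vs. wild type and by 1.36 ± 0.17 in malignant vs. wild type (adjusted p = 0.00374 and 0.00194, edgeR). Gm17300, antisense to Snhg3, rose by 2.12 ± 0.30 and 2.29 ± 0.30 in these comparisons. Without strand, its reads and those of Snhg3 cannot be told apart.

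Zbtb37, a zinc finger gene on the opposite strand whose start lies 427 bp from that of Gas5, was called in no comparison (log2 fold change -0.15 in premalignant vs. wild type). Trnau1ap, a selenocysteine tRNA binding protein beside Snhg12, was also called in none (0.26). Phactr4, beyond the start of Snhg3, fell by 0.59 in malignant vs. premalignant and by 0.69 in malignant vs. wild type.

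The genes most like each host were those with the smallest root-mean-square difference in log2 CPM over the 6 libraries, each gene centred on its own mean. This is a description of libraries that share their depth and stage. The nearest to Gas5 were SNORA18 (0.0923), Snhg1 (0.0937) and the ribosomal protein gene Rpl10a (0.101). The nearest to Snhg1 were the chaperone gene Hsp90ab1 (0.0654), the poly(A) binding protein gene Pabpc4 (0.0714) and SNORA8 (0.0721). The nearest to Snhg3 were snoZ40 (0.130), SNORA32 (0.147) and SNORA1 (0.160).

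All 5 snoRNA genes among these lie inside 1 gene, Taf1d, which encodes a subunit of the RNA polymerase I factor SL1 and hosts snoRNAs itself. The nearest to Snhg12 were Mecr (0.0775), Tomm40 (0.0860) and the pseudogene Gm4604 (0.102). The nearest to Snhg5 were Wdr46 (0.0834), Ppp1r14b (0.0887) and the RNA helicase gene Dhx33 (0.0931). Only the nearest genes of Gas5 included another of the hosts, Snhg1. Of 16682 other genes, Snhg1 took place 2 and Snhg12 place 11 by likeness to Gas5, whereas Snhg3 took place 226 and Snhg5 place 466.

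Other host genes were counted as lists, to be read beside the shares over all genes tested. In premalignant vs. wild type 19% of all genes were called higher and 20.3% lower. The shares were 24.9% and 24.3% in malignant vs. wild type, and 3.73% and 2.45% in malignant vs. premalignant. The same shares apply to the lists below. Of 16 further non-coding hosts listed by name, 6 had a row and 5 were tested. In premalignant vs. wild type 3 of these 5 were called higher and none lower, with a median log2 fold change of 2.00, where the median of all genes tested was -0.08. In malignant vs. wild type 4 were called higher, with a median of 2.22. The most raised were Snhg4 (3.13 ± 0.26) and Snhg7 (2.89 ± 0.50). In malignant vs. premalignant 0 of the 5 were called.

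Protein-coding hosts were more divided. Of 232 tested, 110 were called higher and 24 lower in premalignant vs. wild type (median 0.45), beside 19% and 20.3% of all genes. In malignant vs. premalignant 6 were called higher and 8 lower, beside 3.73% and 2.45% of all genes. In malignant vs. wild type, extremes are given for hosts called and at 10 CPM or more in the higher stage. Among these, Gnl3, a nucleolar GTPase (3.68), and Csda, a cold shock domain protein (2.76), were the most raised. Eng, the endothelial receptor endoglin (-5.62), and Chd3, a chromatin remodeller (-3.84), were the most lowered among these. The lowest log2 fold change of the whole list was -7.63. All 30 protein-coding hosts that encode ribosomal proteins were called higher in premalignant vs. wild type, with a median of 1.24. Of the other 202 hosts 80 were called higher and 24 lower, with a median of 0.35. This split was made after the lists had been counted.

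Over all 158 snoRNA genes that were tested, 50 were called higher and 6 lower in premalignant vs. wild type, beside 19% and 20.3% of all genes. In malignant vs. wild type 68 were called higher and 6 lower, beside 24.9% and 24.3% of all genes, and in malignant vs. premalignant 1 was called higher and 0 lower. This list was added after the values were seen.

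The mRNAs of the proteins that bind snoRNAs rose with the hosts, and the proteins themselves were not measured. The mRNAs of all 4 box C/D core proteins tested were called higher in premalignant vs. wild type (median 1.8). The same held in malignant vs. wild type (median 2.15). These proteins include fibrillarin, the methyltransferase (Fbl, 2.46 ± 0.21 in malignant vs. wild type), and Nop58 (2.41 ± 0.17). The mRNAs of all 4 box H/ACA core proteins were also called higher in both comparisons (medians 2.13 and 2.43). Among them were those of the pseudouridine synthase dyskerin (Dkc1, 2.47 ± 0.15 in malignant vs. wild type) and Nhp2 (2.47 ± 0.12). None of these 8 was called in malignant vs. premalignant. Nop58 and Dkc1 were also in the list of protein-coding hosts, so these lists overlap.

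Of 11 assembly factors, 10 were called higher and none lower in premalignant vs. wild type (median 1.49). The most raised in malignant vs. wild type were Nolc1, a chaperone of snoRNPs (2.63 ± 0.13), and Shq1, which assists dyskerin (2.58 ± 0.26). The exception was Pih1d1, at 0.38 in premalignant and 0.05 in malignant vs. wild type. In malignant vs. premalignant 1 of the 11 was called higher, beside 3.73% of all genes.

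Nonsense-mediated decay removes several of the hosts' spliced RNAs. Of 14 of its genes tested, 4 were called higher and 1 lower in premalignant vs. wild type (median 0.28), beside 19% higher and 20.3% lower over all genes, and none were called in malignant vs. premalignant. The helicase Upf1 stood at 0.47 in premalignant vs. wild type and was not called. The 4 called higher were Eif4a3, Magoh, Magohb and Rbm8a, named after their values were seen. Casc3, which like them belongs to the exon junction complex, was not called (0.28 in premalignant and 0.13 in malignant vs. wild type). Pnrc2, which links decay to decapping, was the one lower, and fell by 1.12 in malignant vs. wild type.

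Ribosomal protein genes, whose mRNAs are known for the TOP tract, rose as a group. Their starts were not examined here, and a link of the tract to the rise was not tested. Of 113 tested, 98 were called higher and 1 lower in premalignant vs. wild type (median 1.22), beside 19% and 20.3% of all genes. In malignant vs. wild type 99 were called higher and 2 lower, with a median of 1.46, and Rps12 (2.22 ± 0.18) and Rps27a-ps2 (2.18 ± 0.21) were the most raised at 10 CPM or more. The list held names ending in -ps and other near-identical copies, which are uncertain. Without the names ending in -ps, a choice made after the values were seen, 80 of 83 were called higher and 1 lower in premalignant vs. wild type, with a median of 1.19.

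In malignant vs. premalignant 2 of the 113 were called higher, beside 3.73% of all genes. Of 14 rows for other TOP mRNAs and their regulators, 10 were called higher and none lower in premalignant vs. wild type (median 1.26). Npm1, a nucleolar chaperone (2.55 ± 0.17), and Eef1b2, an elongation factor subunit (2.12 ± 0.33), were the most raised in malignant vs. wild type. The medians of the 5 non-coding hosts, 1.61 in premalignant and 1.83 in malignant vs. wild type, stood above those of the ribosomal proteins and below those of the box H/ACA core, and no difference between lists was tested.

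**Figure D4:**
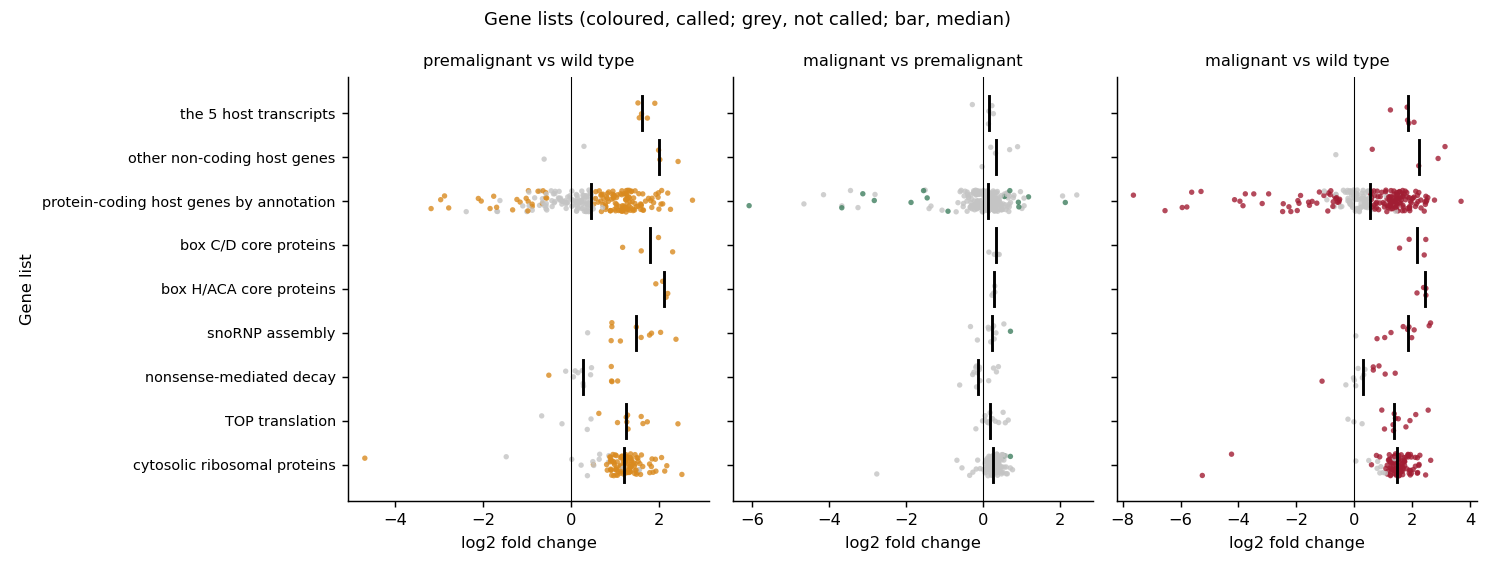
Log2 fold change of each tested gene in the lists, in the 3 comparisons, with coloured points called, grey points not called and bars at the median. In both comparisons with wild type the median of the non-coding hosts stands above 1.5 and that of nonsense-mediated decay genes near 0.3, and in malignant vs. premalignant all medians lie between -0.13 and 0.34.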

How the data were processed

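Reads of polyadenylated RNA, from an unstranded kit, were processed by the authors with CASAVA 1.8.2, aligned with TopHat and counted per Ensembl gene with HTSeq, and these raw counts were deposited without normalization. The HTSeq options are not given in the sources used here. Tables of the authors' DEseq comparisons, holding fold changes and p-values, were not used.

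Symbols and coordinates came from GENCODE vM1 (NCBIM37, mm9), which named 37205 of 37991 identifiers and left 786 without a symbol. Starts came from RefSeq (GRCm38.p6). RefSeq start windows were placed on NCBIM37 by an exact and unique match of their sequence. All 6 libraries entered 1 edgeR fit (edgeR 4.0.16, R 4.3.3) with TMM and the default filter on low counts, and p-values were adjusted by Benjamini-Hochberg. The call needed an FDR of 0.1 or less with a log2 fold change of 0.5 or more in size. The fit was tested on simulated data in which known changes were put into malignant vs. wild type. It gave fold changes near the true ones and the right sign for called genes, with a share of false calls somewhat above the FDR. A first criterion, that most changed genes be called, was not met and was dropped, so a gene that was not called may still have changed. A level of 3 counts was 0.0526 to 0.108 CPM. Alternatives are given below. Depth went with replicate number at each stage, and its part in the results was not tested.

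The members and lists were chosen with earlier results of these data known. From each list, the 2 genes most raised and the 2 most lowered in malignant vs. wild type were named, if called and at 10 CPM or more in the higher stage, with genes tied to a host by role. The tract definition, the ribosomal protein list without names ending in -ps, the split of protein-coding hosts and the list of all snoRNA genes were added after values or sequences were seen. Of the neighbouring genes, 1 is not reported here.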

Additional observations from a re-analysis of the deposited data

How the results depend on the processing

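The hosts called, 5, 0 and 5 in premalignant vs. wild type, malignant vs. premalignant and malignant vs. wild type, were the same in number under upper-quartile normalization, DESeq2 1.42.0, other filters on low counts, a fit restricted to the pair of stages, an FDR of 0.05 and other fold change minimums. Leaving out each library in turn gave 4 to 5, 0 to 1 and 5 hosts; where that left a stage with 1 library, it was assumed to vary like the others. In malignant vs. premalignant the log2 fold change with 1 library left out ran from -0.22 to 0.53 for Gas5, from -0.18 to 0.36 for Snhg1 and from -0.37 to 0.49 for Snhg3. The lowest of these were without malignant replicate 1 and the highest without malignant replicate 2, and Snhg3 was also reversed without premalignant replicate 2 (-0.03). The cause was not tested. Same-numbered libraries deviated together (correlation 0.51, 0.26 and 0.19), but 2 numbers a comparison were not taken as pairs, and a fit with a replicate block called 5, 0 and 5 hosts.

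Over all genes, malignant vs. premalignant called 1031, but 2186 with DESeq2, 407 at an FDR of 0.05, 258 in a fit of only these stages, 2810 without a filter and 0 to 3805 with 1 library left out. Premalignant vs. wild type called 6563, but 4282 with a minimum log2 fold change of 1 in size and 2094 to 8455 with 1 library left out. Upper-quartile normalization put the median of all genes at -0.17 in premalignant and -0.19 in malignant vs. wild type, against -0.08 and -0.02 under TMM.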
